A study of Mus musculus with 9 samples.

Results

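Megakaryocytes carry a specialised cytoskeleton, and 10 genes for parts of it were followed here in hematopoietic stem cells (HSCs) sorted from mouse bone marrow. The genes were chosen by name, with earlier results of these data known: the tubulins *Tubb1*, *Tuba4a* and *Tuba8*, the myosin II genes *Myl9* and *Myh9*, and the focal adhesion genes *Tln1*, *Vcl*, *Actn1*, *Pdlim1* and *Tgfb1i1*. All 10 were found among the 56748 genes of the count table, and all 10 passed the filter on low counts in every comparison. The 9 RNA-seq libraries formed 3 groups of 3 biological replicates. Young HSCs (yHSCs) came from mice of 6 to 10 weeks, and pre-aged HSCs (paHSCs) came from mice of 14 to 16 months and were split into a fraction low in surface P-selectin (Selp_low) and a fraction high in it (Selp_high). All mice were females on a C57BL/6 background. No genotype or treatment separated the groups, and no source used here says whether a replicate was 1 mouse or several pooled mice, so the p-values measure only the spread between these libraries.

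Megakaryocytes make platelets by pushing out long processes called proplatelets. Bundles of microtubules, built from dimers of α- and β-tubulin, extend these processes and later form the coiled ring that gives the resting platelet its disc shape. Non-muscle myosin II pulls on actin filaments once its regulatory light chain is phosphorylated. Focal adhesions join those filaments to integrins, through talin, which activates the integrin, vinculin, which reinforces the link, and α-actinin, which crosslinks actin. HSCs that express platelet genes such as *Vwf* and *Selp* are known in mice and become more frequent with age.

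Of these 10 genes, *Tubb1*, *Myl9*, *Tgfb1i1* and *Pdlim1* had higher levels in all 3 Selp_high libraries than in any Selp_low or yHSC library, an order that 10.3% of all genes tested showed against Selp_low paHSCs and 8.53% against yHSCs. *Tubb1*, the β-tubulin of megakaryocytes and platelets, was 137, 101 and 9.12 times as high in the Selp_high as in the Selp_low library of the same replicate number. The other 6 genes, among them the myosin heavy chain *Myh9*, talin and vinculin, had overlapping levels in Selp_high and Selp_low paHSCs. None of the 10 passed the call rule by edgeR's test in the main fit of any of the 3 comparisons, which was unpaired and filtered on low counts. Unpaired fits without that filter, or against yHSCs with a newer edgeR setting, did call some of them, as given at the end. With the replicate number as a block between the paHSC fractions, edgeR called *Myl9* (adjusted p = 0.0212) among 0.0442% of all genes. The labels do not say whether libraries of the same number share mice. DESeq2 called *Tubb1*, *Myl9*, *Tgfb1i1* and *Pdlim1* between the fractions, among 5.52% of all genes with an adjusted p. Without the filter on low counts DESeq2 did not call *Pdlim1* (adjusted p = 0.130). Genes were called at the study's own thresholds, an adjusted p no higher than 0.05 together with a log2 fold change of 1 or more in either direction.

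The libraries held between 24866975 and 35375310 counts. Levels are given as CPM, a gene's counts relative to the library size after scaling by edgeR's TMM factors, on which a count of 0 allows up to 0.0696 to 0.198 CPM (3 counts, counting error only). The TMM factors were 0.545 in Selp_low replicate 2 and 0.785 in Selp_low replicate 3, and 1.05 to 1.22 in the other 7. *Selp*, the gene behind the sort, was at 20.6 to 30.0 CPM in yHSCs, 29.4 to 109 CPM in Selp_low and 265 to 652 CPM in Selp_high paHSCs, so the fractions did not overlap. All 12 HSC markers examined, such as *Procr* and *Slamf1*, had counts in every library, and they summed to 2489 to 3743 CPM in Selp_high, 990 to 1791 CPM in Selp_low paHSCs and 1198 to 2440 CPM in yHSCs. *Procr* was at 15.7 and 28.5 CPM in Selp_low replicates 2 and 3 and at 62.3 to 236 CPM in the other 7. T and NK cell markers summed to 416 to 1099 CPM in Selp_low paHSCs and 63.5 to 154 CPM elsewhere. B and plasma cell markers summed to 21546 CPM in Selp_low replicate 1 and 457555 CPM in Selp_low replicate 2, against 939 CPM in Selp_low replicate 3, 2745 to 20948 CPM in Selp_high paHSCs and 648 to 1373 CPM in yHSCs. *Cd48*, whose protein the sort excludes, was at 175 and 310 CPM in Selp_low replicates 1 and 2 and 11.6 to 38.7 CPM in the other 7. Neutrophil markers summed to 214301 CPM in Selp_low replicate 3, and to between 591 and 65164 CPM elsewhere. What these other cell types contributed to the values below was not tested, but the calls of the 10 genes between the paHSC fractions are also given without Selp_low replicates 2 and 3. In sorted populations measured in bulk, fewer cells that express a gene and less RNA per cell cannot be told apart.

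*Tubb1* (chromosome 2 from 174292488 to 174299675 on the plus strand, in the mm39 coordinates of the deposited table, as are those that follow) encodes the β-tubulin that is largely restricted to megakaryocytes and platelets. It was at 207, 1072 and 14.7 CPM in Selp_high replicates 1, 2 and 3. The Selp_low libraries had 1.51, 10.6 and 1.61 CPM, and the yHSC libraries 1.26, 5.89 and 14.4 CPM. Selp_high replicate 3 thus lay only just above the highest yHSC library, while Selp_high replicates 1 and 2 were far above every other library. The highest Selp_high level was 72.9 times the lowest, so the group mean of 431 ± 563 CPM (SD, n = 3) says little of any one library.

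**Figure D1:**
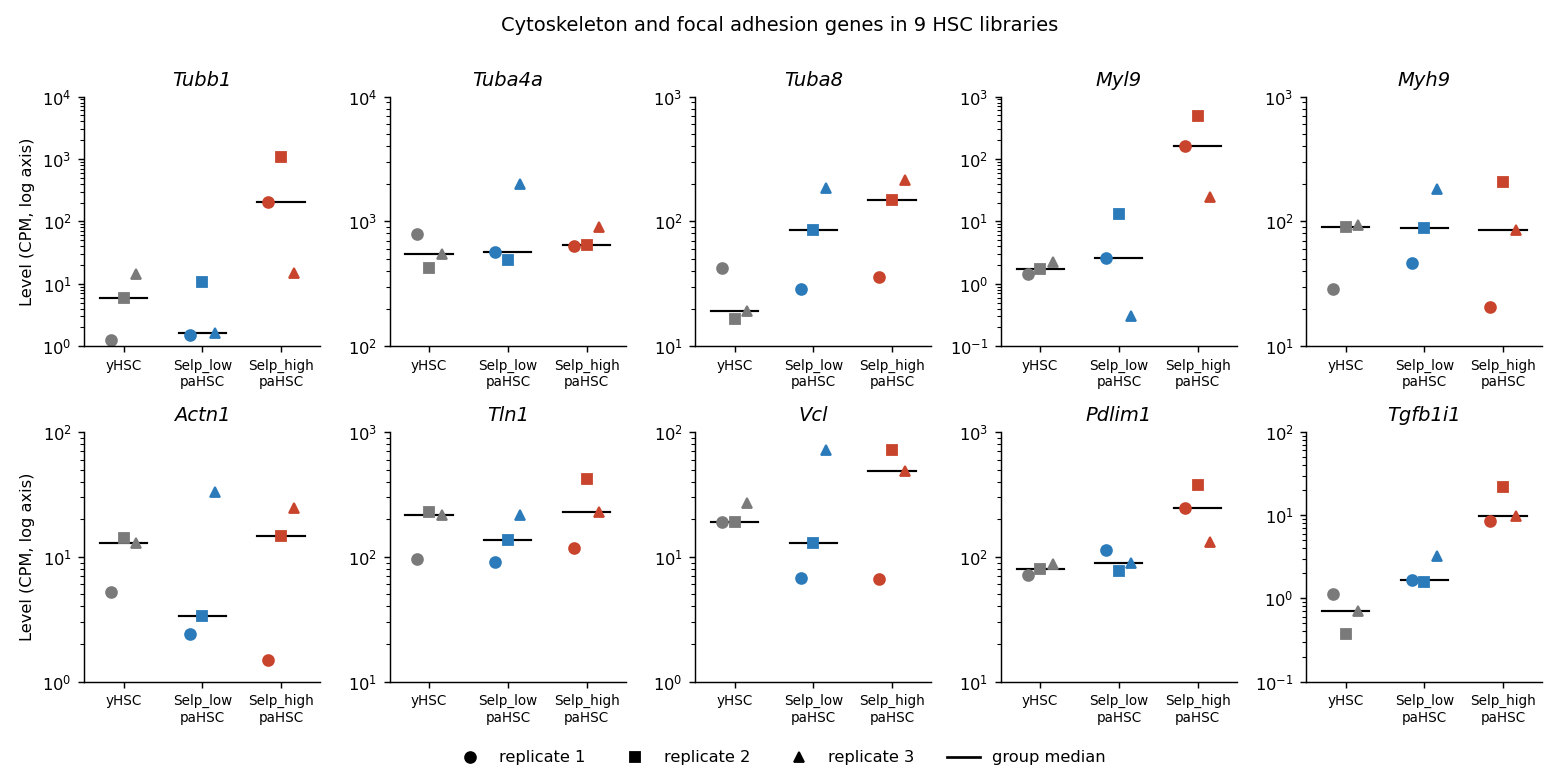
Level of each of the 10 genes in CPM (log axis, with its own range in every panel) in yHSCs, Selp_low paHSCs and Selp_high paHSCs. Symbols mark replicates 1 to 3 and bars the group medians. For *Tubb1*, *Myl9*, *Pdlim1* and *Tgfb1i1* all 3 Selp_high points lie above all others, and for *Tubb1* the lowest of them is at 14.7 CPM and the highest at 1072 CPM.

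The α-tubulins showed no such separation. *Tuba4a* (chromosome 1 from 75190872 to 75196509, minus strand), an α-tubulin abundant in platelets, was at 629, 652 and 906 CPM in Selp_high, 573, 494 and 1981 CPM in Selp_low paHSCs and 794, 421 and 549 CPM in yHSCs. Selp_low replicate 3 was high, and the remaining 8 libraries lay between 421 and 906 CPM. *Tuba8* (chromosome 6 from 121187655 to 121203813, plus strand), an α-tubulin isotype also found in muscle, testis and platelets, was at 35.7, 148 and 214 CPM in Selp_high and at 28.9, 85.4 and 184 CPM in Selp_low paHSCs. In yHSCs it was at 42.0, 16.5 and 19.2 CPM. Replicates 2 and 3 of both paHSC fractions lay above every yHSC library, and replicate 1 of both fractions lay below the highest yHSC library.

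*Myl9* (chromosome 2 from 156617340 to 156623578, plus strand) encodes a regulatory light chain of myosin II that is abundant in smooth muscle and in platelets. Its levels in Selp_high paHSCs were 161, 492 and 24.7 CPM. They were 2.56, 13.2 and 0.300 CPM in Selp_low paHSCs and 1.46, 1.72 and 2.24 CPM in yHSCs. The lowest Selp_high library was above the highest of the other 6, and replicate 3 was the lowest library of each paHSC fraction. *Myh9* (chromosome 15 from 77644787 to 77726375, minus strand), the heavy chain of non-muscle myosin IIA and the gene behind human MYH9-related thrombocytopenia, was at 20.7, 206 and 85.4 CPM in Selp_high, 46.7, 89.3 and 183 CPM in Selp_low paHSCs and 28.6, 90.7 and 93.9 CPM in yHSCs. Its groups overlapped throughout, and the highest and the lowest of the 9 libraries were both Selp_high.

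Markers of smooth muscle, the other main source of *Myl9*, were low but not all near 0. *Tagln* did not exceed 0.131 CPM and *Cnn1* 0.278 CPM in any library, while *Acta2* reached 5.04 CPM, in Selp_high replicate 3, and *Myh11* 5.77 CPM, in yHSC replicate 1. *Col1a2*, a collagen gene of stromal cells, was at 11.6, 13.6 and 28.4 CPM in Selp_high paHSCs and 3.80 to 9.88 CPM in the other 6 libraries. The 14 smooth muscle and stroma markers summed to 25.7 to 43.1 CPM in Selp_high, 18.5 to 55.8 CPM in Selp_low paHSCs and 33.7 to 122 CPM in yHSCs, and their part in the level of *Myl9* was not tested. The 17 megakaryocyte and platelet markers summed to 3520, 10661 and 6355 CPM in Selp_high replicates 1, 2 and 3, to 857, 2350 and 3243 CPM in the Selp_low replicates, and to 758 to 1347 CPM in yHSCs. *Tubb1* and *Myl9* were lowest of their group in Selp_high replicate 3, although that library had a higher sum of these markers than replicate 1. Within the list, *Gp6*, the platelet collagen receptor, took the same order as *Tubb1*, with 18.6, 159 and 3.07 CPM in the Selp_high replicates. *Itga2b*, the α subunit of the fibrinogen receptor, did not, with 441, 1819 and 1227 CPM.

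Among focal adhesion genes, *Tgfb1i1* and *Pdlim1* set Selp_high paHSCs apart. *Tgfb1i1* (chromosome 7 from 127845984 to 127854871, plus strand) encodes Hic-5, a LIM domain adaptor of the paxillin family. It was at 8.48, 22.1 and 9.92 CPM in Selp_high, 1.64, 1.58 and 3.23 CPM in Selp_low paHSCs and 1.12, 0.371 and 0.712 CPM in yHSCs. The 3 groups followed one another without overlap, with yHSCs lowest and Selp_high paHSCs highest. *Pdlim1* (chromosome 19 from 40209617 to 40260286, minus strand), a PDZ and LIM domain protein that binds α-actinin, was at 248, 376 and 132 CPM in Selp_high, 113, 77.2 and 89.4 CPM in Selp_low paHSCs and 71.8, 79.8 and 88.1 CPM in yHSCs. Here the lowest Selp_high library was close to the highest Selp_low library, and Selp_low paHSCs and yHSCs overlapped. Of the 50-base words in *Pdlim1* transcripts, 9.74% also occurred in transcripts of another gene, most often *Gm5864*, so that part of its count depends on how such reads were assigned. That share was under 1% for the other 9 genes.

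*Tln1*, *Vcl* and *Actn1* overlapped between all groups. *Tln1* (chromosome 4 from 43531519 to 43562691, minus strand), which encodes the talin of blood cells, was at 118, 421 and 227 CPM in Selp_high, 91.4, 137 and 214 CPM in Selp_low paHSCs and 96.2, 227 and 218 CPM in yHSCs. *Vcl* (chromosome 14 from 20979466 to 21083744, plus strand), the gene of vinculin, was at 6.69, 72.0 and 48.5 CPM in Selp_high, 6.80, 12.9 and 71.9 CPM in Selp_low paHSCs and 18.8, 18.9 and 27.2 CPM in yHSCs. *Actn1* (chromosome 12 from 80214321 to 80307145, minus strand), an α-actinin, was at 1.50, 14.8 and 24.6 CPM in Selp_high, 2.40, 3.37 and 33.1 CPM in Selp_low paHSCs and 5.19, 14.2 and 12.8 CPM in yHSCs. In all 3 genes replicate 1 was the lowest library of each paHSC fraction and of the yHSCs. In the Selp_low fraction all 3 peaked in replicate 3, the library with the high neutrophil markers, as did *Myh9*, *Tuba4a*, *Tuba8* and *Tgfb1i1*. *Tuba4a*, *Tln1* and *Vcl* also overlap protein-coding genes on the opposite strand, *Stk16*, *Creb3* and *Ap3m1*, and since the strand setting of the counting is not given in the sources used here, reads from the overlaps cannot be assigned. *Ap3m1* had 872 to 3914 counts per library and *Vcl* 196 to 2917.

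To set different genes side by side, FPKM were calculated from the counts and the gene length in the table. In yHSCs *Tuba4a* led with 159 ± 51.2 FPKM (SD, n = 3), above *Tln1* with 18.4 ± 7.45 FPKM without overlap. *Tln1*, *Pdlim1* and *Tuba8* followed with neighbours that overlapped, and *Tgfb1i1* was last with 0.131 ± 0.0671 FPKM, below *Myl9* without overlap. In Selp_low paHSCs *Tuba4a* led again, with 275 ± 226 FPKM, and none of the other neighbours in the order separated. In Selp_high paHSCs *Tubb1* (307 ± 400 FPKM), *Tuba4a* (197 ± 41.6 FPKM) and *Myl9* (195 ± 207 FPKM) stood first by their means, but the libraries of all neighbours overlapped. In yHSCs *Tubb1* and *Myl9* had ranks 6 and 9 of the 10 genes. *Tgfb1i1*, at 2.42 ± 1.34 FPKM, remained last in Selp_high paHSCs.

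The first comparison asks how the P-selectin fractions of pre-aged HSCs differ. *Tubb1* had a log2 fold change of 6.56 in Selp_high over Selp_low paHSCs (SE 1.73, and 0.338 as the adjusted p of edgeR's quasi-likelihood F-test). It was 5.40 for *Myl9* (SE 1.60), 2.64 for *Tgfb1i1* (SE 0.558) and 1.43 for *Pdlim1* (SE 0.412), with the same adjusted p of 0.338 by edgeR. The size of these changes rested on single libraries: without Selp_high replicate 2 they were 4.61 for *Tubb1* and 4.13 for *Myl9*, and without Selp_low replicate 2 they were 8.14 and 7.28. With 1 library left out the range was 2.09 to 3.06 for *Tgfb1i1* and 1.02 to 1.74 for *Pdlim1*. By edgeR 0 of the 10 genes and 0% of the 20370 genes tested were called, while 2555 genes and 4 of the 10 had an unadjusted p under 0.05. By DESeq2 those 4 were called and 5.52% of the 14624 genes with an adjusted p were, with 3% called as higher. The DESeq2 adjusted p was 2.25e-05 for *Tubb1*, 0.000708 for *Tgfb1i1*, 0.000869 for *Myl9* and 0.0474 for *Pdlim1*. Without the filter on low counts the call of *Pdlim1* was lost (adjusted p = 0.130 by DESeq2) and those of *Tubb1*, *Myl9* and *Tgfb1i1* held. *Tubb1* and *Tgfb1i1* were named by the study from these same libraries, and all 10 genes were chosen with earlier results of these data known. None of these calls is therefore independent evidence.

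**Figure D2:**
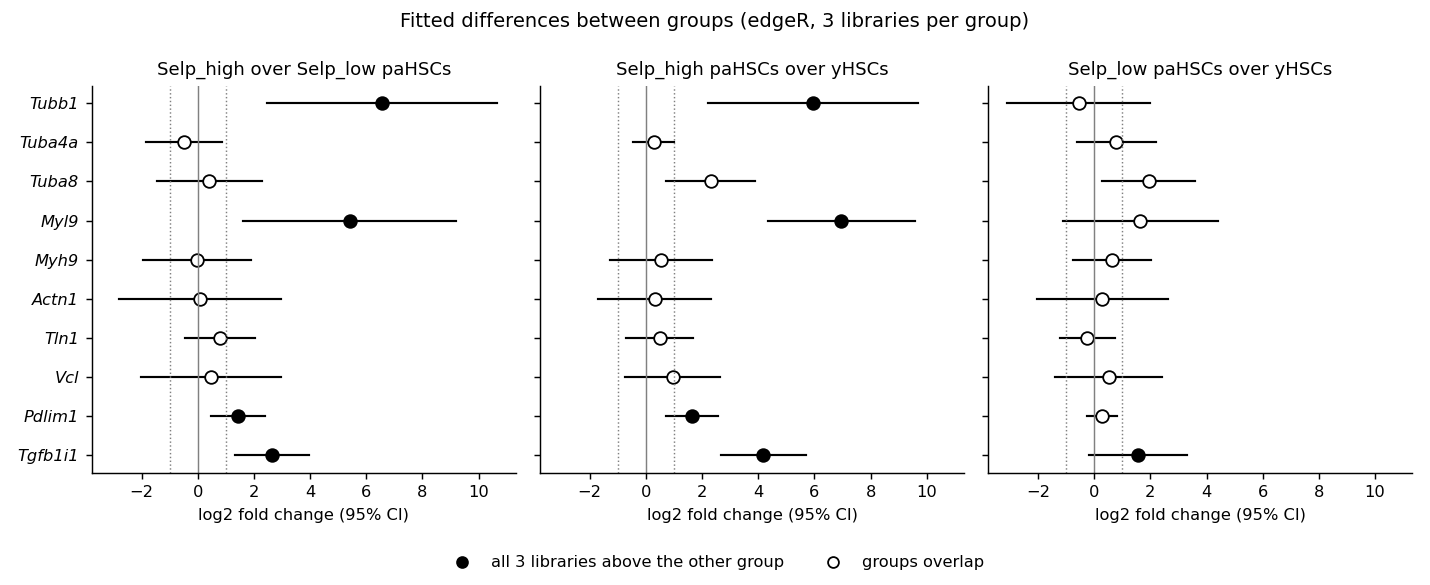
Log2 fold change of each gene by edgeR with its 95% confidence interval for the 3 comparisons, 3 libraries per group. Filled points mark genes with all 3 libraries of the first group above all 3 of the second, open points genes whose groups overlap, and dotted lines the fold change limit of the call rule. The widest intervals between the paHSC fractions belong to *Tubb1* (2.48 to 10.6) and *Myl9* (1.63 to 9.18).

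With the replicate number as a block, which pairs the libraries of the 2 fractions, *Myl9* was called by edgeR, with a log2 fold change of 5.77 and an adjusted p of 0.0212. It was the only one of the 10 to be called in that fit and the only gene called as higher among all 20370, where 0.0442% were called in either direction. *Tubb1* (5.78, adjusted p = 0.0935 by edgeR), *Tgfb1i1* (2.56, adjusted p = 0.118) and *Pdlim1* (1.31, adjusted p = 0.174) were not called in the blocked fit. DESeq2 with the block called the same 4 genes as without it, against 10.2% of all genes. The calls of *Tubb1* and *Tgfb1i1* by DESeq2 held with any 1 library left out. That of *Myl9* was lost without Selp_low replicate 1 (adjusted p = 0.102 by DESeq2), and that of *Pdlim1* held only without Selp_high replicate 3 (adjusted p = 0.00715 by DESeq2) and reached 0.326 without Selp_low replicate 2. Without Selp_low replicates 2 and 3 together, a fit chosen after seeing the data in which 1 Selp_low library is assumed to vary like the others, DESeq2 still called *Tubb1* (8.11, adjusted p = 0.0359), *Myl9* (6.42, adjusted p = 1.87e-06) and *Tgfb1i1* (2.99, adjusted p = 0.0250) but not *Pdlim1* (1.12, adjusted p = 0.695), and edgeR called none of the 10.

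The other 6 genes had log2 fold changes between -0.48 and 0.79 in Selp_high over Selp_low paHSCs. They were 0.79 for *Tln1* (95% confidence interval -0.45 to 2.03), 0.48 for *Vcl* (-2.02 to 2.97), 0.41 for *Tuba8* (-1.47 to 2.29), 0.08 for *Actn1* (-2.82 to 2.97), -0.03 for *Myh9* (-1.96 to 1.90) and -0.48 for *Tuba4a* (-1.84 to 0.88). Of these 6, *Tln1* alone kept its sign in every fit with 1 library left out: by edgeR, *Tuba8* and *Actn1* became negative without Selp_low replicate 1 or Selp_high replicate 3, *Actn1* also without Selp_low replicate 2, and *Vcl* without Selp_low replicate 1 or Selp_high replicate 2. *Myh9* became positive without Selp_low replicate 3 or Selp_high replicate 1 or 3, and *Tuba4a* without Selp_low replicate 3. Differences beyond the call limit in either direction therefore lie within the intervals of *Vcl*, *Tuba8*, *Actn1* and *Myh9*. In all, 8 of the 10 were higher, against 9120 of the 20370 genes tested, and 4 lay above without overlap, against 10.3%. The median of the 10 was 0.63, against -0.11 over the 20370 genes tested. Without Selp_low replicate 3 the median of the 10 was 1.75.

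Within library pairs of the same number, 6 of the 10 genes were higher in the Selp_high library in all 3 pairs, an order that 21.6% of all genes tested showed. The ratios of *Tubb1*, given above, ranged from 9.12 to 137. *Myl9* was 62.9, 37.3 and 82.1 times as high, and so was the steadier of the pair although its levels differed more between Selp_low libraries. The ratio of 82.1 rests on 8 counts of *Myl9* in Selp_low replicate 3 (0.300 CPM), where a count of 0 allows up to 0.113 CPM. The ratios were 5.16, 13.9 and 3.07 for *Tgfb1i1* and 2.196, 4.87 and 1.48 for *Pdlim1*. *Tuba8* (1.23, 1.73 and 1.16) and *Tln1* (1.29, 3.07 and 1.06) were also higher in each pair, by smaller ratios. *Vcl*, *Actn1* and *Myh9* were higher in pair 2 alone, by ratios of 5.57, 4.39 and 2.31, and *Tuba4a* was higher in pairs 1 and 2 and lower in pair 3.

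**Figure D3:**
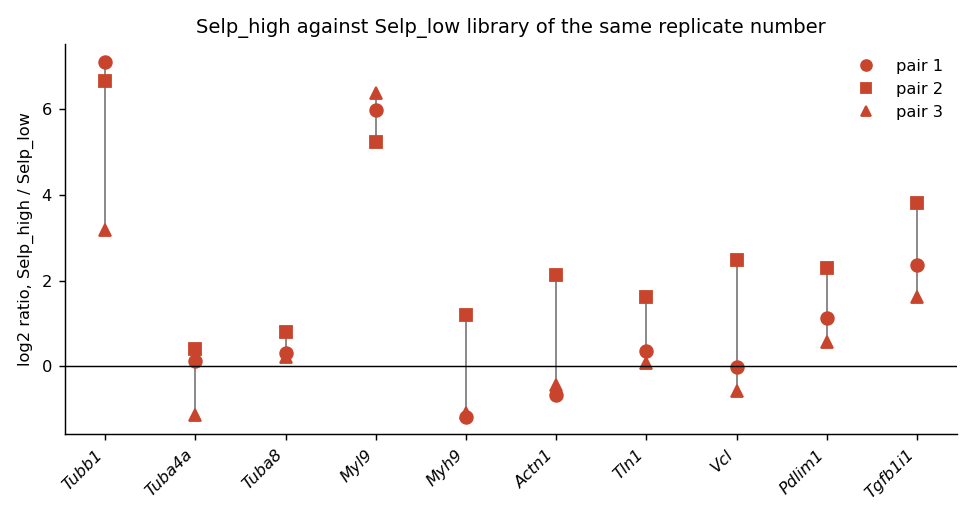
Log2 ratio of CPM in the Selp_high over the Selp_low library of the same replicate number, for each gene (1 symbol per pair, grey lines join the 3 pairs, 0 means equal levels). *Myl9* lies between 5.22 and 6.36 in all pairs, *Tubb1* between 3.19 and 7.10, and *Vcl*, *Actn1* and *Myh9* lie above 0 in pair 2 alone.

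The second comparison sets Selp_high paHSCs against yHSCs, which differ in age as well as in the sort, and it shares the Selp_high libraries with the first. All 10 genes had a positive log2 fold change, as did 9567 of the 20017 genes tested. Those of *Myh9* and *Tln1* were negative without Selp_high replicate 2 (-0.46 and -0.10 by edgeR). That of *Actn1* was negative without Selp_high replicate 3 (-0.41) or yHSC replicate 1 (-0.01). The log2 fold change was 6.96 for *Myl9* (SE 1.12, adjusted p = 0.0965 by edgeR), 5.94 for *Tubb1* (SE 1.60, adjusted p = 0.324), 4.18 for *Tgfb1i1* (SE 0.647, adjusted p = 0.0901), 2.30 for *Tuba8* (SE 0.680, adjusted p = 0.383) and 1.64 for *Pdlim1* (SE 0.392, adjusted p = 0.245). With 1 library left out *Tubb1* ranged from 3.97, without Selp_high replicate 2, to 6.84, and *Myl9* from 5.66, again without Selp_high replicate 2, to 7.49. By edgeR 0 of the 10 and 0.165% of the 20017 genes tested were called. By DESeq2 these 5 genes were called, all as higher, against 3.73% of all genes and 2.34% as higher. The same 4 genes as between the fractions lay above without overlap, against 8.53% of all genes, and *Tuba8* overlapped because Selp_high replicate 1 lay below yHSC replicate 1.

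Among these DESeq2 calls, *Myl9* and *Tgfb1i1* held with any 1 library left out. *Tubb1* was lost without yHSC replicate 2 (adjusted p = 0.0618 by DESeq2), and *Pdlim1* without yHSC replicate 2 (0.0567) or yHSC replicate 3 (0.0606). *Tuba8* was lost without Selp_high replicate 2 or 3 or yHSC replicate 2 or 3, with an adjusted p between 0.117 and 0.205 by DESeq2. Without Selp_high replicate 1, *Vcl* was called as well (log2 fold change 1.45, adjusted p = 0.00166 by DESeq2). The remaining 5 genes had log2 fold changes from 0.27 for *Tuba4a* to 0.95 for *Vcl*, the latter with an interval of -0.73 to 2.64. The median of the 10 was 1.30, against -0.03 over all genes tested.

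The third comparison sets Selp_low paHSCs against yHSCs, which were not split by P-selectin, so these groups too differ in age and in the sort. The Selp_low libraries also held the markers of other cell types described above. Age, the sort and those cells cannot be told apart here. Neither edgeR (0% of 20437 genes called) nor DESeq2 (6.13% of 14627 called) called any of the 10 genes, and 1 of them, *Tuba8*, had an unadjusted p under 0.05 by edgeR. *Tuba8* had a log2 fold change of 1.94 (SE 0.701, adjusted p = 0.372 by edgeR) and was called by DESeq2 without Selp_low replicate 1 (adjusted p = 0.00640) or yHSC replicate 1 (0.00929). *Tgfb1i1* had 1.56 (SE 0.730, adjusted p = 0.486 by edgeR) and was the only one of the 10 with all 3 Selp_low libraries above all yHSC libraries, an order shown by 9.59% of all genes. It was called by DESeq2 without yHSC replicate 1 (adjusted p = 0.0201).

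*Myl9* had 1.64 in Selp_low paHSCs over yHSCs (95% confidence interval -1.11 to 4.40) and -0.34 without Selp_low replicate 2. *Tubb1* had -0.55 (-3.09 to 1.98), and 0.44 without yHSC replicate 3. For both genes the Selp_low and yHSC libraries overlapped. The values of *Actn1* (0.29) and *Vcl* (0.51) turned with Selp_low replicate 3: without it they were -1.90 and -1.14 by edgeR, and DESeq2 then called *Actn1* as lower (-1.85, adjusted p = 0.0211). The median of the 10 was 0.57, against 0.08 over all genes tested.

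The place of each gene in its own protein family was described by its share of the family's summed FPKM. *Tubb1* made up 31.0%, 48.3% and 2.73% of the β-tubulins in Selp_high replicates 1, 2 and 3, against 0.234% to 2.35% in Selp_low paHSCs and 0.341% to 3.17% in yHSCs. Selp_high replicate 3 fell within the yHSC range by this measure. *Tubb4b*, a β-tubulin of most tissues, was the leading β-tubulin in yHSCs (60.5% ± 4.78) and Selp_low paHSCs (71.2% ± 1.95), and made up 16.7% to 66.5% in Selp_high paHSCs. *Tubb2a* made up 29.1% in Selp_high replicate 2, and 2.94% to 7.56% in the other 8 libraries.

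*Myl9* made up 78.8%, 92.1% and 33.0% of the regulatory light chains in Selp_high paHSCs. In the other 6 libraries *Myl12a*, the light chain of most cells, made up between 80.6% and 96.9%, and *Myl9* between 0.320% and 14.9%. The FPKM of *Myl12a* itself were 33.8 to 41.2 in Selp_high paHSCs, 48.7 to 78.3 in Selp_low paHSCs and 22.4 to 41.8 in yHSCs. *Tgfb1i1* took 15.4%, 29.5% and 10.7% of the paxillin family in Selp_high paHSCs and 0.309% to 3.15% elsewhere. In Selp_low replicates 1 and 2 *Lpxn*, the paxillin relative of lymphocytes and other blood cells, took 93.3% and 93.1% of that family, against 2.40% to 42.8% in the other 7 libraries.

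**Figure D4:**
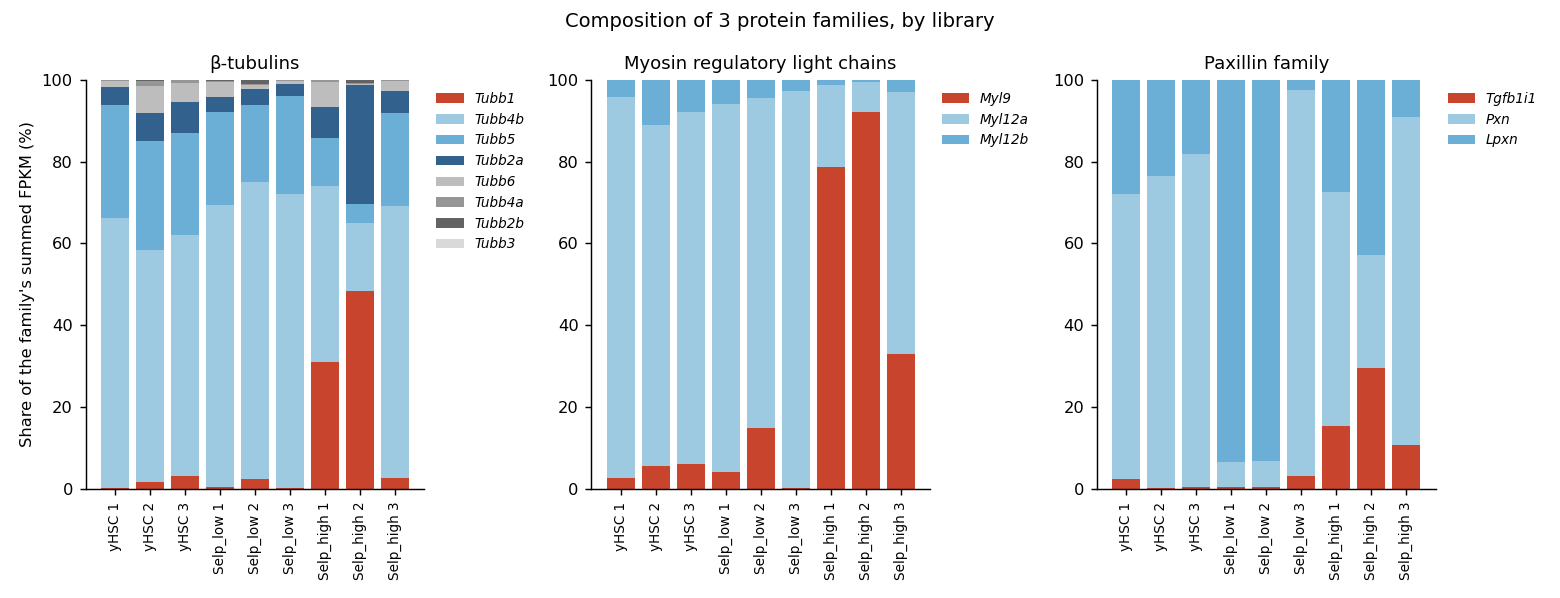
Share of each gene in the summed FPKM of the β-tubulins, the myosin regulatory light chains and the paxillin family (percent), in the 9 libraries. The red segments are *Tubb1*, *Myl9* and *Tgfb1i1*. *Myl9* takes 33.0% to 92.1% of the light chains in the Selp_high libraries and at most 14.9% in the other 6.

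*Myh9* made up 81.0% to 96.4% of the non-muscle myosin heavy chains in all 9 libraries, and *Tln1* at least 97.0% of the talins. *Actn1* made up 0.395% to 7.79% of α-actinins 1 and 4, so that *Actn4* was the main α-actinin in every library. *Tuba4a* made up 23.6% to 39.2% of the α-tubulins, with group means of 29.7% to 30.3%. *Tuba8* made up 2.17% ± 1.06 in yHSCs, 4.96% ± 2.25 in Selp_low and 8.30% ± 4.72 in Selp_high paHSCs, ranges that overlapped between the fractions. *Pdlim1* made up 39.5% to 58.1% of the PDLIM family in Selp_high paHSCs and 31.9% to 42.9% elsewhere, and led that family in 7 libraries, with *Pdlim7* ahead in yHSC replicate 2 (37.9%) and *Pdlim2* in Selp_low replicate 2 (36.5%).

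The genes whose levels over the 9 libraries were most like each of the 10 were found by the root-mean-square difference of log2 CPM, each gene centred on its mean. Nearest to *Tubb1* were *Gp6* (0.779), *Alox12*, the platelet 12-lipoxygenase (0.873), and *Slc6a4*, the serotonin transporter (0.898). Nearest to *Myl9* were *Alox12* (1.10), *Gp6* (1.30) and *Ppbp*, a platelet chemokine (1.50). The spread about their own means on the same scale was 3.11 for *Tubb1* and 3.22 for *Myl9*, and the distance between the 2 genes was 1.22. The nearest of 15758 candidate genes are close by selection, so a distance below the spread is no result in itself.

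For *Tgfb1i1* the nearest genes were *Rbpms2* (0.525), *Fhl1* (0.553) and *Wwtr1*, which encodes TAZ (0.564). For *Pdlim1* they were *Pttg1ip* (0.220), *Dusp23* (0.246) and *Kdr*, the receptor VEGFR2 (0.249). *Kdr* is on the list of 8 endothelial markers, which summed to 275 to 449 CPM in Selp_high, 101 to 150 CPM in Selp_low paHSCs and 128 to 327 CPM in yHSCs. Of that list, *Tie1* was at 168 to 188 CPM in Selp_high, 21.8 to 56.6 CPM in Selp_low paHSCs and 36.2 to 139 CPM in yHSCs. *Flt1* was lower in Selp_high (0.143 to 1.01 CPM) than in Selp_low paHSCs (1.12 to 3.38 CPM). *Plvap* and *Emcn* were highest in Selp_high replicate 1 (106 and 89.4 CPM), but they, *Pecam1* and *Stab2* overlapped between the fractions. *Cdh5*, a junction gene of endothelium, was at 0.258 to 1.64 CPM in all 9 libraries. The part of endothelial cells in these levels was not tested. *Myh9* was nearest to *Flna*, the gene of the actin crosslinker filamin A (0.248, against a spread of 1.05). *Vcl* was nearest to *Kifc1* (0.441) and *Actn1* to *Notch1* (0.487), and *Tuba4a*, *Tuba8* and *Tln1* to *Atp6ap2*, *Robo3* and *Ptpn12*. None of the genes nearest to these 6, to *Tgfb1i1* or to *Pdlim1* is a platelet gene of the marker list. The points share libraries and depth, so these are descriptions.

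Other genes of the same machinery were examined in 7 lists, written with earlier results of these data known. In these lists edgeR called 0 genes in every comparison. Of the 20370 genes tested between the fractions, 9120 were higher and 11250 lower in Selp_high paHSCs. Without overlap 10.3% lay above and 10.7% below, and DESeq2 called 3% of genes with an adjusted p as higher and 2.52% as lower. Of 40 focal adhesion genes tested between the fractions, 28 were higher in Selp_high paHSCs and 13 lay above without overlap, with a median log2 fold change of 0.62, and DESeq2 called 5 as higher and 1 as lower. *Tns2*, a tensin, was at 22.9 to 48.4 CPM in Selp_high and 5.74 to 6.99 CPM in Selp_low paHSCs, a log2 fold change of 2.47 (SE 0.368, adjusted p = 0.338 by edgeR). *Itga5*, the α subunit of the fibronectin receptor, had 1.54, *Pdlim7* 1.41, *Ptk2*, focal adhesion kinase, 1.48, and *Itga6*, a laminin receptor subunit, 2.23, and these 4 and *Tns2* are the DESeq2 calls. *Lpxn* was the call in the other direction (-3.56), from 0.788 to 107 CPM in Selp_low and 2.67 to 10.3 CPM in Selp_high paHSCs. With the replicate block DESeq2 called 12 focal adhesion genes as higher and 0 as lower, against 4.98% and 5.22% of all genes.

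Of 24 actomyosin genes 12 were higher in Selp_high paHSCs, against 9120 of all 20370 genes tested, and the median was 0.00. *Mylk*, which encodes the kinase that phosphorylates the regulatory light chain, was at 19.1 to 79.7 CPM in Selp_high, 7.39 to 9.23 CPM in Selp_low paHSCs and 8.31 to 9.14 CPM in yHSCs, and its log2 fold change between the fractions was 2.32 (SE 0.564, adjusted p = 0.338 by edgeR, 0.00622 by DESeq2). *Cald1*, which encodes the actin-binding protein caldesmon, had 4.26 (SE 1.50, adjusted p = 0.0129 by DESeq2) with overlap, since one Selp_high library was at 1.26 CPM. *Actb*, cytoplasmic β-actin, lay lower in every Selp_high library, at 1233 to 3229 CPM against 7985 to 12190 CPM, with a log2 fold change of -2.04 (SE 0.519, adjusted p = 0.000689 by DESeq2). *Tpm1*, a tropomyosin, had 0.97 and lay above without overlap, at 101 to 162 against 54.7 to 70.3 CPM.

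Among 26 actin assembly genes 18 were lower in Selp_high paHSCs, against 11250 of all 20370 genes tested, with a median of -0.39. *Pfn1*, profilin (-1.11), and *Coro1a*, a coronin of blood cells (-1.09), lay below without overlap and were called by DESeq2 (adjusted p = 0.0295 and 0.0317). *Cttn*, cortactin, had 1.40 and was not called (adjusted p = 0.0670 by DESeq2). Of 13 other tubulins 5 were higher, with a median of -0.11, and *Tubb2a* was the one called by DESeq2 (3.75, SE 1.19, adjusted p = 0.00825). *Tubb2a* was at 32.4 to 739 CPM in Selp_high and 17.9 to 23.2 CPM in Selp_low paHSCs. Of 20 microtubule partners 11 were higher, with a median of 0.05 and *Mapre3*, an end-binding protein, as the DESeq2 call (1.34, adjusted p = 0.0383). Of 15 membrane skeleton genes 6 were higher, with a median of -0.26 and 0 DESeq2 calls, and 1 had an unadjusted p under 0.05 by edgeR, *Ezr* (-0.98).

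**Figure D5:**
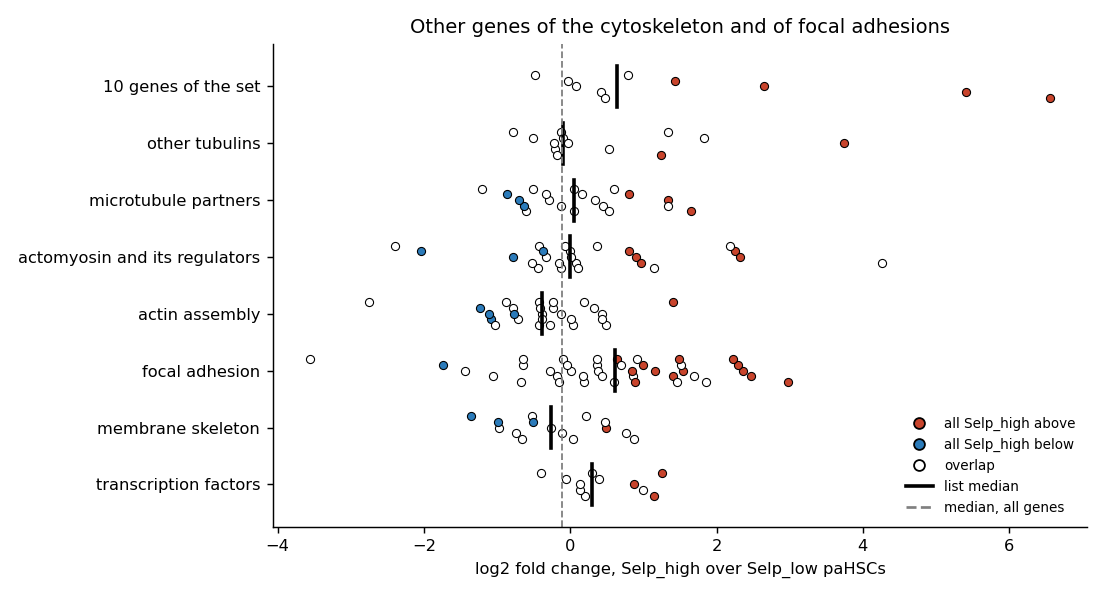
Log2 fold change in Selp_high over Selp_low paHSCs by edgeR for the 10 genes and for 7 lists of other genes of the cytoskeleton and of focal adhesions (1 point per gene). Black bars are list medians, and the dashed line is the median of all 20370 genes, -0.11. The focal adhesion list has a median of 0.62 and 13 of 40 genes above without overlap (10.3% of all genes tested), and the actin assembly list a median of -0.39.

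Against yHSCs, the calls by DESeq2 in these lists were *Tpm4* (2.77), *Mylk* (2.24) and *Cald1* (4.19) among actomyosin genes, *Itga2b* (3.79), *Itgb3* (3.44) and *Itga6* (2.09) among focal adhesion genes, *Rab27b*, a GTPase of platelet granules (3.31), and *Cttn* (1.44). Over all genes DESeq2 called 2.34% as higher in this comparison. The adjusted p by edgeR was 0.0888 for *Itga2b*, 0.0917 for *Itgb3* and 0.0812 for *Rab27b*. Of the 10 genes followed here, *Myl9* and *Tgfb1i1* had adjusted p-values of like size. *Itga2b* and *Itgb3* together form the platelet fibrinogen receptor, to which talin binds.

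Several transcription factors are known to act on these genes. NF-E2, whose large subunit *Nfe2* encodes, drives *Tubb1* in megakaryocytes, and serum response factor (SRF), with its coactivators *Mrtfa* and *Mrtfb*, drives actin and myosin genes. *Nfe2* was at 613 to 1173 CPM in Selp_high, 294 to 594 CPM in Selp_low paHSCs and 486 to 773 CPM in yHSCs, and had a log2 fold change of 0.87 between the fractions (adjusted p = 0.433 by edgeR). *Gata2* had 1.15 (SE 0.268) and was called by DESeq2 (adjusted p = 0.00610), and *Tal1* had 1.26 (SE 0.404, adjusted p = 0.0844 by DESeq2), both without overlap. *Srf* had 0.29 and *Gata1* 0.14, and both overlapped. Of the 11 factors 9 were higher, against 9120 of all 20370 genes tested, with a median of 0.29.

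Promoter windows of 300 bases, from 250 bases before to 50 after the start, were taken from RefSeq's GRCm38.p6 annotation, which holds one for 9 of the 10 genes. The CArG box, the motif SRF binds, was searched on both strands and stood in 2 of these 9 windows and in 1.63% of all 32851. They are shown because 1 of the 2, *Myl9*, belongs to the genes that set Selp_high paHSCs apart and the other, *Vcl*, does not. The box is in capitals.
Myl9: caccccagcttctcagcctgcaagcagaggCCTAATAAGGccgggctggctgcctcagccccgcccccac
Vcl: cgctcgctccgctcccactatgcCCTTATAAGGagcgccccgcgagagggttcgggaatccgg
These lie at chr2:156775273-156775342 and chr14:20929148-20929210 of GRCm38.p6, both on the plus strand, with the box at bases -161 to -152 of *Myl9* and -227 to -218 of *Vcl*. The strings TGAGTCA (bound by AP-1 and NF-E2, in 5.2% of all windows), AGATAA (bound by GATA factors, 11.2%), TGATAA (likewise, 9.05%) and CCGGAAGT (bound by Ets factors, 3.89%), searched on both strands, were in 0 of the 9 windows. The strings of the GATA factors differ from each other in their first letter alone. A match is a string of letters and not a measured site, and none found says nothing of the factor.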

How the data were processed

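The authors sequenced cDNA that an ultra-low-input kit had made from RNA of sorted mouse HSCs, in 3 libraries each of yHSCs, Selp_low paHSCs and Selp_high paHSCs. They used fastp for trimming, HISAT2 (v2.2.1) for alignment and featureCounts (v2.0.6) for gene counts; the submitters' processing notes also name CASAVA 1.8, DESeq2 1.42.0 and build mm39. The values the authors deposited are raw read counts of 56748 genes, not normalized, beside gene lengths and positions. The strand setting, annotation release and treatment of multi-mapping reads were not given in the sources used here. All per-sample columns were used (0 left out). Amplified low-input cDNA without molecular identifiers adds error that counting limits do not cover.

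Tests were run in edgeR 4.0.16, on limma 3.58.1, and in DESeq2 1.42.0 (R 4.3.3); plots came from matplotlib 3.10.9 under Python 3.11.15. The depth was 24866975 to 35375310 counts per library. CPM and FPKM were computed here from the counts with TMM factors, and log2 CPM with a prior count of 2. A comparison was fitted on its own 6 libraries, by filterByExpr, TMM, edgeR's quasi-likelihood test with its legacy setting, 2-sided, and Benjamini-Hochberg adjustment over all genes tested. With 3 libraries against 3 an exact permutation test cannot go below p = 0.1 and none was used. The steps were tested on simulated data. An adjusted p that DESeq2 gives as missing was left out.

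The 10 genes and the lists were chosen with earlier results of these data known. Named genes were the 10, at most 3 nearest profiles of each, family members, DESeq2 calls and at most 3 genes of lowest p per list, cell type markers and *Selp*. Residuals of Selp_high and Selp_low libraries of the same number correlated at 0.195, 0.318 and 0.323, all above the 0.1 taken as pairing. In comparisons with yHSCs, which came from other mice, the correlations ran from -0.398 to 0.0877. Since libraries of different mice gave values of like size, these correlations cannot show whether the fractions shared mice. The labels' numbers are the only source of the pairing. Shared 50-base words and overlaps came from GENCODE transcripts of GRCm38 and the deposited positions. Other experiments of the study were not analysed here.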

Additional observations from a re-analysis of the deposited data

How the results depend on the processing

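By edgeR 0 of the 10 genes were called in any comparison as reported, with RLE factors, with a mean of at least 10 counts as the filter, in 1 fit of all 9 libraries, without a minimum fold change or with any 1 library left out. Without a filter on low counts edgeR called 3 of the 10 in Selp_high over Selp_low paHSCs and 5 in Selp_high paHSCs over yHSCs, against 0.443% and 1.14% of all genes. With its newer quasi-likelihood setting it called 2 in the latter, against 0.46%. DESeq2 called 4 and 5 of the 10 in these comparisons with the filter, 3 and 5 without it (added after seeing the data, against 2.46% and 3.26%), and 3 between the fractions without Selp_low replicates 2 and 3 (2.31%). With 1 library left out DESeq2 called 2 to 4, 2 to 6 and 0 to 2 of the 10 in the 3 comparisons (1.17% to 9.72%, 2.28% to 5.11% and 1.18% to 14% of all genes), and edgeR 0 in each. With the replicate block the count between the fractions was 1 by edgeR and 4 by DESeq2, and in Selp_high paHSCs over yHSCs 0 and 5; the block changed no other count. The log2 fold changes of *Tubb1*, *Myl9*, *Tgfb1i1* and *Pdlim1* kept their direction against both other groups for Selp_high paHSCs in every fit. With 1 library left out, over both tools, values that changed sign ranged between the fractions from -0.14 to 1.21 (*Tuba8*), -0.70 to 2.24 (*Actn1*), -0.18 to 2.10 (*Vcl*), -0.81 to 0.44 (*Tuba4a*) and -1.04 to 0.61 (*Myh9*). In Selp_high paHSCs over yHSCs they ranged from -0.41 to 0.84 (*Actn1*), -0.46 to 1.04 (*Myh9*) and -0.11 to 0.83 (*Tln1*), and in Selp_low paHSCs over yHSCs from -1.90 to 0.78 (*Actn1*), -2.20 to 0.44 (*Tubb1*), -0.66 to 0.00054 (*Tln1*), -0.34 to 2.17 (*Myl9*), -0.14 to 1.15 (*Tuba4a*), -0.067 to 0.98 (*Myh9*) and -1.14 to 0.98 (*Vcl*).

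Without a filter *Myh9* was at 0.036 between the fractions. With the replicate block (edgeR, then DESeq2) *Actn1* was at -0.25 and -0.27 in Selp_high paHSCs and -0.60 and -0.65 in Selp_low paHSCs over yHSCs, and *Vcl* at -0.18 and -0.21 in the latter. Without Selp_low replicates 2 and 3 (edgeR, then DESeq2), *Tuba4a* was at 0.35 and 0.30 and *Myh9* at 1.17 and 1.10 between the fractions. In Selp_low paHSCs over yHSCs *Tuba4a* was then at -0.13 and -0.032, *Myh9* at -0.73 and -0.54, *Actn1* at -2.29 and -2.11 and *Vcl* at -1.77 and -1.63. The cause of these differences was not tested.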

Other observations

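In Selp_low paHSCs over yHSCs, 23 of 26 actin assembly genes had a positive log2 fold change, as did 11270 of the 20437 genes tested. The median of the 26 was 0.51, against 0.08 over all genes tested. By edgeR 0 of the 26 were called and 4 had an unadjusted p under 0.05, as did 2306 of all genes tested. *Tmsb4x*, thymosin β4, which binds actin monomers, was at 5004 to 11197 CPM in Selp_low paHSCs and 1292 to 3532 CPM in yHSCs (log2 fold change 2.01, SE 0.580, adjusted p = 0.337 by edgeR, 0.0128 by DESeq2) and was the DESeq2 call of that list. *Pfn1* had 1.39, *Actb* 1.63 and *Coro1a* 0.99, each without overlap. These genes are abundant in lymphocytes and granulocytes, and the part of those cells in the values was not tested. T and NK cell markers summed higher in every Selp_low library than in any yHSC library, and B and plasma cell markers did so in Selp_low replicates 1 and 2. Neutrophil markers summed higher in Selp_low replicate 3 alone (214301 CPM). In Selp_low replicates 1 and 2 they were lower than in every yHSC library.

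Of 20 microtubule partners 10 were higher in Selp_low paHSCs than in yHSCs, and DESeq2 called 4 as higher, among them *Rab27b* (2.03, adjusted p = 0.00682) and the tubulin folding cofactor *Tbca* (1.03, adjusted p = 0.00234), and 1 as lower, *Map7* (-1.57, adjusted p = 0.00848). Over all genes DESeq2 called 3.9% as higher and 2.22% as lower. *Tbca* was at 62.7 to 66.9 CPM in Selp_low paHSCs, 40.5 to 42.7 CPM in Selp_high paHSCs and 30.7 to 35.5 CPM in yHSCs, so that the 3 groups did not overlap. *Itgb3*, the β subunit of the fibrinogen receptor, had 1.99 (adjusted p = 0.00377 by DESeq2) and was one of 2 focal adhesion genes that DESeq2 called in this comparison, the other being *Lpxn* (3.41).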
